A study of Mus musculus with 4 samples.

Results

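The genes described are 10 that drive or close mitosis, chosen by name: the cyclins Ccna2, Ccnb1 and Ccnb2, the kinases Cdk1, Plk1, Aurka and Aurkb, the survivin gene Birc5, the anaphase-promoting complex activator Cdc20 and the transcription factor gene Foxm1. They were chosen with earlier results of these data known, so their ranks and shares beside all genes are descriptions. Of these 10 genes, 9 were measured, by 14 probe sets, among 10923 genes in all; Ccnb1 was not analysed here, since no probe set was named for it. The siOrm group held 2 arrays of liver RNA from mice given an siRNA against Orm1, and the siControl group held 2 arrays from mice given a control siRNA. All mice were male C57BL6/J, aged 6 to 13 weeks, and all had received 1 injection of siRNA in Invivofectamine, a lipid reagent that carries it mainly to the liver. In both groups 40% of the liver was removed 3 days after the injection, and the regenerating liver was taken 48 h after this partial hepatectomy. The purpose stated in the series title was to find the molecular targets of Orm1, the gene of an orosomucoid, a plasma protein that hepatocytes make more of in inflammation. The group is given by the source names; the titles of the siOrm arrays end in the same digits as Orm1 and Orm2 and were read as replicate numbers. Whether each array holds 1 mouse or pooled mice is not labelled, and the labels' protocols name cultured cells and another maker's labelling method, so the laboratory steps are uncertain. Neither group was left without surgery, so how far the genes were induced by hepatectomy is not measured here.

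Cyclins are the regulatory partners of cyclin-dependent kinases. Cyclin A2 acts in S phase and G2, and cyclins B1 and B2 bind Cdk1 to start mitosis. Polo-like kinase 1 and the Aurora kinases build and correct the spindle, and the anaphase-promoting complex, a ubiquitin ligase, ends mitosis by marking cyclins, Aurora kinases and other regulators for degradation once Cdc20, and later Cdh1, activates it. The transcription factor FoxM1 and the MuvB complexes that include B-Myb or the DREAM repressor control many of these genes. After partial hepatectomy in rodents, hepatocytes leave quiescence, replicate their DNA and pass through mitosis, and mouse livers without Foxm1 regenerate poorly.

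MuvB complexes bind a promoter element with the letters TTTGAA, the cell cycle genes homology region, and the factor NF-Y binds the letters CCAAT. Promoter windows of RefSeq (build GRCm38.p6) were found for 6 of the 9 measured members, Cdc20, Birc5, Ccnb2, Cdk1, Plk1 and Aurka, and for Ccnb1; Ccna2, Aurkb and Foxm1 had none in that table. The window from 150 bases before to 50 bases after the start is printed for 3 genes with the largest differences between the groups, Birc5, Cdc20 and Ccnb2, and for Cdk1, the kinase that the mitotic cyclins bind. Capitals mark TTTGAA and CCAAT, searched on both strands, so that CCAAT on the other strand appears as ATTGG. The windows are chr11:117849087-117849286 on the plus strand for Birc5, and chr4:118437294-118437493, chr9:70421505-70421704 and chr10:69352863-69353062 on the minus strand for Cdc20, Ccnb2 and Cdk1.
Birc5: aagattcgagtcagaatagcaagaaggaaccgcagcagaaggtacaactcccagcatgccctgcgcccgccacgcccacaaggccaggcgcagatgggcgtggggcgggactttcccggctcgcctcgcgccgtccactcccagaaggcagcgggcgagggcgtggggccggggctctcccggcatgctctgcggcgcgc
Cdc20: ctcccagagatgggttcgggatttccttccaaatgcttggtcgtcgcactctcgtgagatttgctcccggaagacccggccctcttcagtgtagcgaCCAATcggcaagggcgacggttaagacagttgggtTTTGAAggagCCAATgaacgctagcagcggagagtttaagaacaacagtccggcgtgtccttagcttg
Ccnb2: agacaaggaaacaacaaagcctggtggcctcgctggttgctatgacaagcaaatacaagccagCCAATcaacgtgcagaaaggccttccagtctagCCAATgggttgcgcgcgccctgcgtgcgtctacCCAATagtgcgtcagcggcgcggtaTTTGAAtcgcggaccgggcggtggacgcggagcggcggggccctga
Cdk1: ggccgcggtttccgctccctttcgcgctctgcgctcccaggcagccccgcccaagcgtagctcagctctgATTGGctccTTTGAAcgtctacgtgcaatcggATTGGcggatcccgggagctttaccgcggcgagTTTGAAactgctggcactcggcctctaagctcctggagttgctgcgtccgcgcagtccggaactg

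Within these 200 bases, TTTGAA and CCAAT both occurred in 5 of the 6 measured members with a window, against 3.3% of all 32851 windows of that length. With or without the other, TTTGAA was in 11.2% of all windows and CCAAT in 28.6%, and no motif overlapped another in the members. The window of Ccnb1, which was not measured, held CCAAT at 99 and at 67 bases before the start and no TTTGAA, so both occurred in 5 of the 7 windows found. Cdc20 had its TTTGAA 18 bases before the start, between CCAAT at 53 and at 8 bases before it. Ccnb2 had 3 copies of CCAAT before the start and TTTGAA from base 5 after it. Cdk1 had TTTGAA at 71 and at 15 bases before the start, and CCAAT on the opposite strand at 80 and at 48 bases before it. Plk1 had TTTGAA from base 31 and Aurka from base 33 after the start, each downstream of CCAAT. Birc5 held neither set of letters, nor the variant TTCGAA, which was in 0 of the 6 measured members and in 0.892% of all windows. These matches describe the letters in 1 annotated window per gene and say nothing of factor binding in these livers.

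All values that follow are log2 signals minus the probe set's median over the arrays, averaged over the probe sets of a gene, or differences of such values, siOrm minus siControl. Because of this centring the 2 middle arrays of a probe set always stand at equal distances above and below 0, and no signal level, background or saturation can be seen. For the same reason the liver origin could not be checked from hepatocyte genes, whose levels are hidden. Base 2 of the logarithm was assumed. Over the whole table no gene passed the test at an adjusted p under 0.05 (limma, 10923 genes): 0.0% were called lower and 0.0% higher, with 282 genes lower (2.58%) and 238 higher (2.18%) at an unadjusted p under 0.05. The orosomucoid genes did not pass either (limma, adjusted p = 0.994 for each). The targeted Orm1 stood at -0.24 and -0.02 in siOrm, against 0.02 and 0.19 in siControl, and its paralog Orm2 at -0.94 and -0.16 in siOrm, against 0.16 and 0.90 in siControl; Orm3 stood at -0.31 and -0.15 in siOrm, against 0.15 and 1.20 in siControl. The siControl arrays were less alike than the siOrm arrays, with a standard deviation of the difference between arrays over genes of 0.249 within siOrm and 0.384 within siControl. From siControl replicate 1 it was 0.310 to siOrm replicate 1 and 0.233 to siOrm replicate 2, so that array was nearer to both siOrm arrays than to siControl replicate 2. In siControl replicate 2, 137 genes stood above 1, against 0 to 12 in the other arrays.

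Of the 9 measured mitotic regulators, 7 showed siOrm arrays that lay entirely below the siControl arrays, as 15.3% of all genes did, and 0 showed them entirely above, as 17.0% of all genes did. None passed the test over all genes (limma, smallest adjusted p = 0.857 for Cdc20), while 6 had an unadjusted p under 0.05, all of them lower in siOrm, where 2.58% of all genes were lower and 2.18% higher at that threshold. The median of their differences was -0.82, against 0.01 over all genes. These genes were chosen with earlier results of these data known, so the shares describe them and test nothing. Averaged over the 9 genes, the values were -0.43 and -0.24 in siOrm and 0.22 and 0.65 in siControl, so that both arrays of each group lay on 1 side. The highest value was in siControl replicate 2 for 7 of the 9 genes, against 28.1% of all genes. For the other 2 it was in siControl replicate 1, against 27.2% of all genes. The lowest value was in siOrm replicate 1 for 6 genes, against 28.4% of all genes. RNA was taken from whole liver, so fewer cells in mitosis and less of these transcripts per cell cannot be told apart. With 2 arrays against 2 an exact permutation test of 1 gene cannot give a two-sided p under 0.333.

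**Figure D1:**
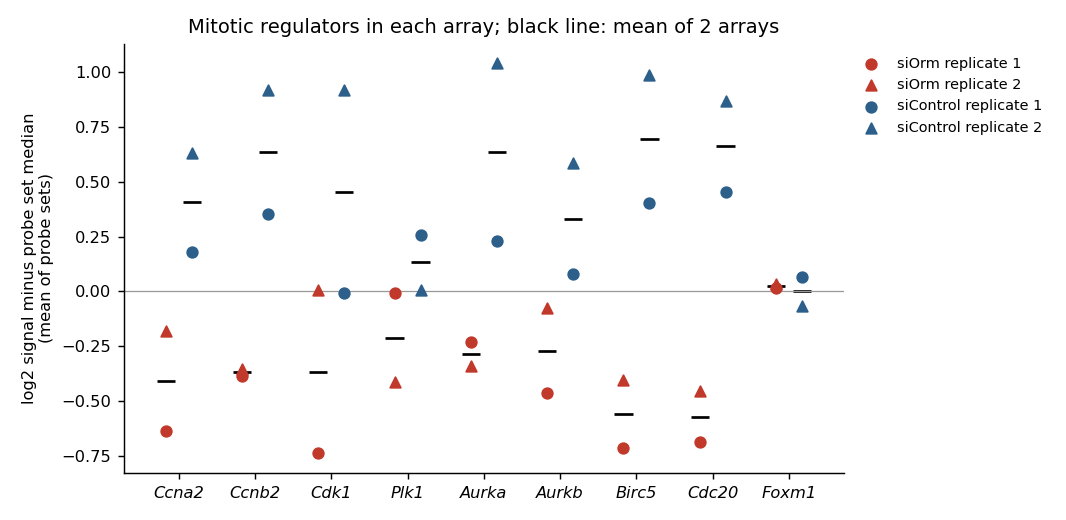
Log2 signal minus the probe set median (y axis) of the 9 measured mitotic regulators (x axis), with siOrm arrays in red left of siControl arrays in blue, circles for replicate 1, triangles for replicate 2 and a black line at the mean of 2 arrays. Ccna2, Ccnb2, Aurka, Aurkb, Birc5 and Cdc20 have both red points below 0 and both blue points above 0. Plk1 does too, with its nearest red and blue points at -0.01 and 0.01. Cdk1 overlaps between the groups, and Foxm1 stays between -0.07 and 0.07.

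Among the cyclins, Ccnb2, which encodes cyclin B2, stood at -0.39 and -0.35 in siOrm, against 0.35 and 0.92 in siControl. Its siOrm arrays were nearly equal, and its siControl arrays lay 0.57 apart. The difference was -1.005 (SE 0.21, 95% interval -1.53 to -0.48; limma, adjusted p = 0.994), which on a linear scale is 49.8% of the siControl level. Ccna2, the cyclin of S phase and G2, stood at -0.64 and -0.18 in siOrm, against 0.18 and 0.63 in siControl. Here the arrays of both groups were about equally far apart, by 0.46 in siOrm and 0.45 in siControl, with no overlap between the groups. The difference was -0.82 (SE 0.23, 95% interval -1.39 to -0.25; limma, adjusted p = 0.994), or 56.8% of the siControl level.

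Cdk1, the kinase that both cyclin A2 and the B cyclins activate, stood at -0.74 and 0.01 in siOrm, against -0.01 and 0.92 in siControl. Its groups met in the middle: siOrm replicate 2 and siControl replicate 1 differed by 0.01, while the outer arrays were far apart. The difference of -0.82 matched that of Ccna2 in size but had the largest standard error of the 9 genes, 0.38 (95% interval -1.75 to 0.12; limma, adjusted p = 0.994). It was -0.36 without siControl replicate 2, -0.45 without siOrm replicate 1 and -1.28 without siControl replicate 1. The separation of the arrays seen for Ccnb2 and Ccna2 was not seen for Cdk1.

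Of the Aurora kinases, Aurka, which acts at centrosomes and spindle poles, stood at -0.23 and -0.34 in siOrm, against 0.23 and 1.04 in siControl. The siOrm arrays were close together, and siControl replicate 2 lay 0.81 above siControl replicate 1. The difference was -0.92 (SE 0.27, 95% interval -1.60 to -0.24; limma, adjusted p = 0.994), and -0.52 without siControl replicate 2. Aurkb, the kinase of the chromosomal passenger complex, stood at -0.46 and -0.08 in siOrm, against 0.08 and 0.59 in siControl. The nearest arrays of the groups were 0.15 apart, less than the arrays within either group. Its difference was -0.60 (SE 0.23, 95% interval -1.17 to -0.04; limma, adjusted p = 0.994), and -0.35 without siControl replicate 2.

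Birc5, which encodes survivin, the passenger complex subunit that brings Aurora B to centromeres, had the lowest difference of the 9 genes. It stood at -0.72 and -0.40 in siOrm, against 0.40 and 0.98 in siControl, and all 4 pairs of a siOrm with a siControl array differed by between -1.70 and -0.81. The difference was -1.25 (SE 0.23, 95% interval -1.83 to -0.67; limma, adjusted p = 0.874), or 42.0% of the siControl level, and it ranked 32nd lowest of 10923 genes. The interval overlapped that of its partner Aurkb.

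Plk1, the Polo-like kinase, stood at -0.01 and -0.41 in siOrm, against 0.26 and 0.01 in siControl. Unlike for the other kinases, siControl replicate 1 was its highest array; siOrm replicate 2 was the lowest, as for Aurka, and the nearest arrays of the groups were 0.01 apart. The difference was -0.34 (SE 0.19, 95% interval -0.81 to 0.13; limma, adjusted p = 0.994). Leaving out 1 array moved it between -0.55, without siOrm replicate 1, and -0.14, without siOrm replicate 2.

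Cdc20, the activator of the anaphase-promoting complex in mitosis, had the smallest p of the 9 genes and the 7th smallest of all genes. It stood at -0.69 and -0.45 in siOrm, against 0.45 and 0.87 in siControl, a gap of 0.91 between the nearest arrays of the groups. The difference was -1.23 (SE 0.19, 95% interval -1.70 to -0.76; limma, adjusted p = 0.857), or 42.6% of the siControl level. Leaving out 1 array in turn gave differences from -1.44 to -1.02. This mean hides unequal probe sets. Probe set 1439377_x_at stood at -1.57 and -0.74 in siOrm, against 0.74 and 1.46 in siControl, a difference of -2.26. Probe set 1416664_at stood at -0.62 and -0.52 in siOrm, against 0.52 and 1.24 in siControl, a difference of -1.45. The third, 1439394_x_at, stood at 0.13 and -0.09 in siOrm, against 0.09 and -0.09 in siControl, a difference of 0.02.

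Foxm1, the transcription factor gene, stood at 0.01 and 0.03 in siOrm, against 0.07 and -0.07 in siControl. Its difference was 0.02 (SE 0.13, 95% interval -0.30 to 0.35; limma, adjusted p = 0.999), with the siOrm arrays inside the range of the siControl arrays. The lower end of that interval lies above the differences of the other 8 genes. The 3 probe sets of Foxm1 disagreed in direction. Probe set 1448834_at had its siOrm arrays below its siControl arrays, with a difference of -0.21, 1417748_x_at had them above, with 0.24, and 1448833_at overlapped, with 0.04. The sign of the gene's difference therefore depended on the probe sets taken: it was -0.09 without the _x_at probe set and -0.21 for the most variable one. Ccna2 also has more than 1 probe set, and both had their siOrm arrays below their siControl arrays, with differences of -1.17 for 1417910_at and -0.46 for 1417911_at. Tested singly, 0 of the 14 probe sets passed over all 17209 probe sets, of which 0.0% were called (limma, smallest adjusted p = 0.966). At an unadjusted p under 0.05, 8 of the 14 were lower and 0 higher, where 2.45% and 1.76% of all probe sets were.

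**Figure D2:**
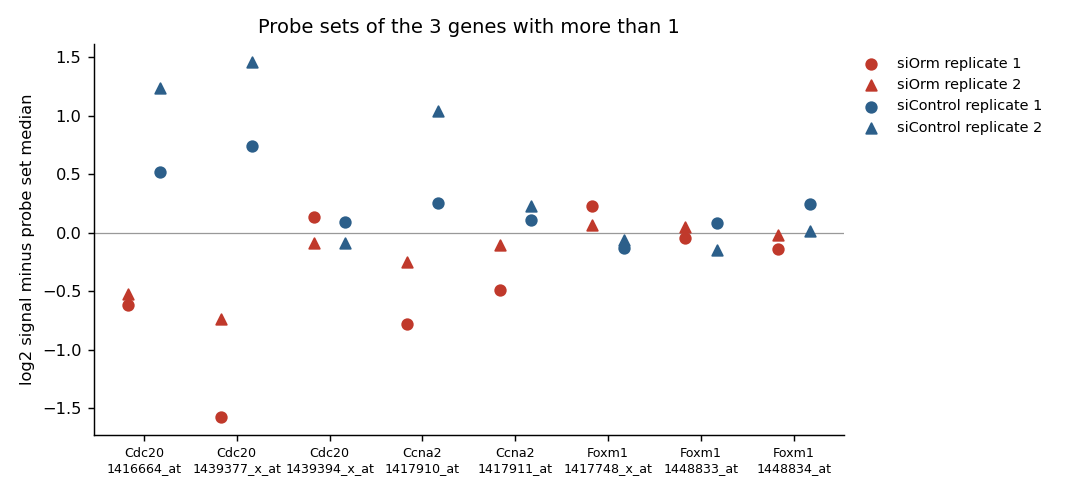
Log2 signal minus the probe set median (y axis) of each probe set of Cdc20, Ccna2 and Foxm1 (x axis), siOrm arrays in red left of siControl arrays in blue, circles for replicate 1 and triangles for replicate 2. Both Ccna2 probe sets and 2 of the 3 Cdc20 probe sets separate the groups, 1439394_x_at does not, and the Foxm1 probe sets go different ways.

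In order of their differences the genes were Birc5, Cdc20, Ccnb2, Aurka, Cdk1, Ccna2, Aurkb, Plk1 and Foxm1. The 95% intervals of the first 8 all overlapped one another. That of Foxm1 overlapped all but those of Birc5, Cdc20 and Ccnb2. Differences between genes were not tested, so the order is a description. Birc5, Cdc20 and Ccnb2 were the genes with every pair of a siOrm and a siControl array at least 0.70 apart. Without siControl replicate 2, the array that stood highest for 7 genes, the differences were smaller for all but Plk1 and Foxm1, with a median of -0.52. The median without siControl replicate 1 was -1.28, a fit in which siControl replicate 2 alone stands for its group and the smallest adjusted p was 0.0188 (limma), with Cdc20, Birc5, Ccnb2 and Aurka passing, where 1.68% of all genes were called lower.

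**Figure D3:**
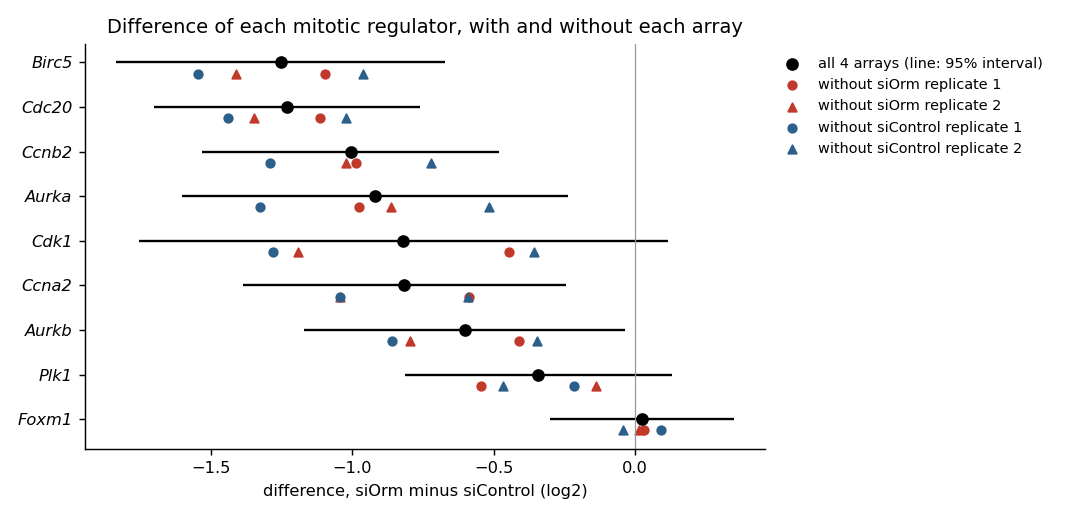
Difference, siOrm minus siControl, on the log2 scale (x axis) of each mitotic regulator (y axis). Black points with 95% intervals use all 4 arrays, and coloured points leave out 1 array (red for siOrm, blue for siControl). Birc5, Cdc20 and Ccnb2 keep differences of -0.72 or lower whichever array is left out, while Cdk1 moves between -1.28 and -0.36.

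Further genes of the pathway were taken from lists of the anaphase-promoting complex, its substrates, the kinases' partners and the transcription factors, which were written with earlier results of these data known. No gene of these lists passed the test over all genes (limma), and at an unadjusted p under 0.05 19 of the 100 measured were lower and 1 higher, where 2.58% and 2.18% of all genes were. Of these 100 genes, 48 were separated downwards, with the siOrm arrays entirely below the siControl arrays, and 11 upwards, against 15.3% and 17.0% of all genes. Their median difference was -0.19, and siControl replicate 2 was the highest array for 59 of the 100, against 28.1% of all genes.

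The anaphase-promoting complex itself was measured through 12 subunit genes, of which 3 were separated downwards and 2 upwards, where 15.3% and 17.0% of all genes were. The median difference of these subunit genes was -0.05. The subunit genes with the smallest p were Anapc7 at 0.21, Anapc15 at -0.18 and Anapc16 at 0.15. Of its activators, inhibitors and ubiquitin-conjugating enzymes, 7 of 10 were separated downwards and 0 upwards, against the same shares of all genes. Their median was -0.22, or -0.09 without siControl replicate 2. Ube2c, the conjugating enzyme that works with the complex, stood at -0.90 and -0.22 in siOrm, against 0.22 and 0.86 in siControl, a difference of -1.10 (SE 0.31). Mad2l1, whose product holds Cdc20 inactive until chromosomes are attached, differed by -0.76, and Mad2l1bp, whose product helps take that inhibitor apart, by -0.38. Mad2l1 stood at -0.42 without siControl replicate 2, and leaving out siControl replicate 1 or siOrm replicate 1 gave Mad2l1bp -0.15 or -0.24. Fzr1, which encodes the Cdh1 activator used after mitosis, differed by 0.08, a sign that turned to -0.06 without siControl replicate 2.

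Of 16 other substrates of the complex, 10 were separated downwards and 2 upwards, where 15.3% and 17.0% of all genes were, with a median of -0.42, or of -0.26 without siControl replicate 2. Cdca3, a mitotic entry factor, differed by -0.84 (SE 0.16), the ribonucleotide reductase subunit gene Rrm2 by -0.95 and the microtubule protein gene Ckap2 by -0.71; without siControl replicate 2, Rrm2 stood at -0.62 and Ckap2 at -0.44. The thymidine kinase gene Tk1 went the other way, at 0.33 and 0.06 in siOrm, against -0.17 and -0.06 in siControl, a difference of 0.32 that was 0.18 without siOrm replicate 1. Among 12 partners of the Aurora and Polo kinases all had negative differences, as 5221 of all 10923 genes did. Of these partners 5 were separated downwards and 0 upwards, again beside 15.3% and 17.0% of all genes. Their median was -0.23, or -0.46 without siOrm replicate 2. Kif20a, the kinesin of the central spindle, differed by -0.67 (SE 0.15), Ect2, which directs the cleavage furrow, by -1.08 (SE 0.30), and Plk4, the kinase of centriole duplication, by -0.83 (SE 0.28). Without siOrm replicate 1, Ect2 stood at -0.69 and Plk4 at -0.52, and Plk4 at -0.53 without siControl replicate 2.

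Genes that switch Cdk1 on or off were split. Of 17 measured, 6 were separated downwards and 3 upwards, where 15.3% and 17.0% of all genes were. Differences were negative for 7 and positive for 10, with a median of 0.05. This median became -0.14 without siControl replicate 1, and -0.03 both without siControl replicate 2 and without the probe sets named _s, _x or _a. Cks1b, a small subunit that binds Cdk1, stood at -0.57 and -0.18 in siOrm, against 0.18 and 0.53 in siControl, a difference of -0.73 (SE 0.20). The phosphatase gene Cdc25a differed by -0.61, and Cdkn1a, which encodes the inhibitor p21, by -0.60. These 3 genes had the smallest p of the list, and Cks1b was also the furthest against its median, so no higher gene was named. The highest difference of the 17 was 0.22. Cdc25a stood at -0.24 without siOrm replicate 1 and at -0.98 without siOrm replicate 2, and Cdkn1a at -0.30 without siControl replicate 2.

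The transcription factors that act on mitotic promoters showed no common direction, with a median of 0.01. Of 16 measured, 5 were separated downwards and 4 upwards, where 15.3% and 17.0% of all genes were. E2f8, an atypical repressor, differed by -0.85 (SE 0.19), and Rbl1, which encodes p107, by -0.96 (SE 0.46), with siControl replicate 2 at 1.47 and a difference of -0.24 without it. Rbl2, which encodes the p130 subunit of the DREAM complex, stood at 0.21 and 0.14 in siOrm, against -0.17 and -0.17 in siControl, a difference of 0.34 (SE 0.13), and E2f3 differed by 0.29. Of 17 other target genes of FoxM1 and DREAM, 12 were separated downwards and 0 upwards, where 15.3% and 17.0% of all genes were, with a median of -0.36, or of -0.17 without siControl replicate 2. Mki67, the proliferation marker Ki-67, stood at -0.40 and -0.18 in siOrm, against 0.18 and 1.43 in siControl, a difference of -1.09 that was -0.47 without siControl replicate 2. Stmn1, a microtubule destabiliser, differed by -0.60 and the spindle kinesin gene Kif11 by -0.44. Stmn1 stood at -0.26 without probe sets named _s, _x or _a and at -0.95 for its most variable probe set. Spag5 stood at 0.06 and turned to -0.05 without siOrm replicate 1.

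Relatives of the members, among them genes that act outside mitosis, were measured too. Of 21 other cyclins and cyclin-dependent kinases, 7 were separated downwards and 1 upwards, where 15.3% and 17.0% of all genes were, with a median of -0.19, or of -0.06 without siOrm replicate 1 and -0.10 without siControl replicate 2. The lowest difference among them was that of Ccnd1, the cyclin of G1, at -0.79, larger in size than those of Aurkb and Plk1, with groups that overlapped and siControl replicate 2 at 1.51; it was named after its values were seen. Ccne1, the cyclin of S phase entry, differed by -0.36 (SE 0.13), Ccnl1 by -0.41, Cdk12 by -0.47 and Cdk18 by 0.31. Without siControl replicate 2, Ccnl1 stood at -0.12 and Cdk12 at -0.10, and leaving out siControl replicate 1 or siOrm replicate 1 gave Cdk18 0.15 or 0.16. Of 8 other genes of the inhibitor of apoptosis family of Birc5, its antagonist Diablo included, 1 was separated downwards and 1 upwards, with a median of -0.08 that was -0.26 without siControl replicate 1 and 0.02 without siControl replicate 2. Xiap differed by -0.35, or by -0.21 without siControl replicate 2, Naip6 by 0.32 and Naip2 by -0.23, which was 0.04 without siOrm replicate 1.

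**Figure D4:**
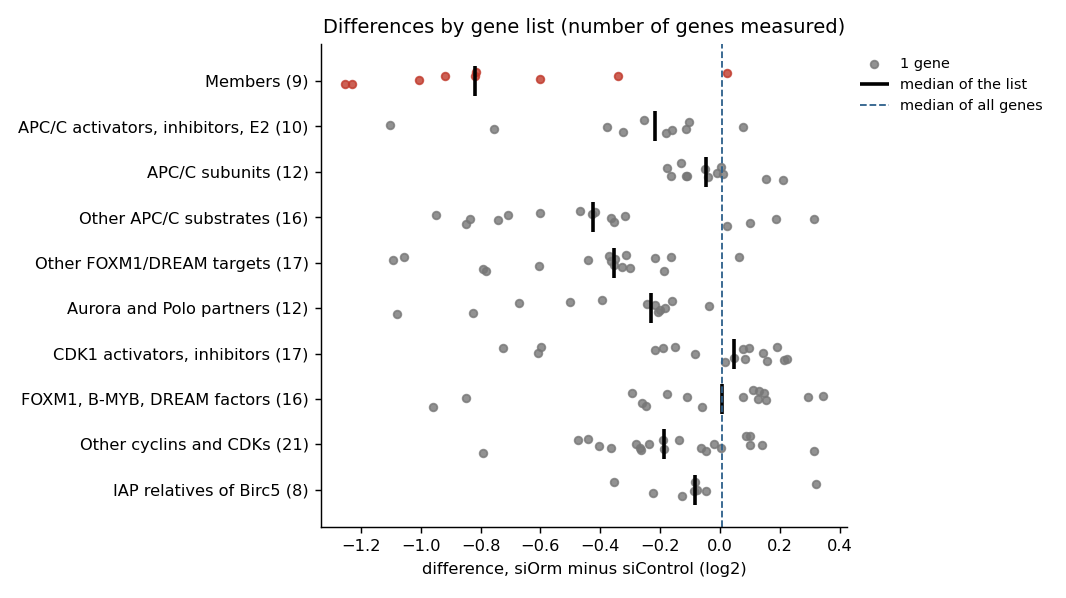
Difference, siOrm minus siControl, on the log2 scale (x axis) of each measured gene by list (y axis, with the number of genes measured). Points are genes, black bars are list medians and the dashed line is the median of all genes at 0.01. The members reach from -1.25 to 0.02 with a median of -0.82, and the subunits of the anaphase-promoting complex lie around a median of -0.05.

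Markers of other liver cell types moved with the arrays as well. The mean of 13 macrophage markers was -0.02 and -0.09 in siOrm, against -0.23 and 0.70 in siControl, so it was highest in siControl replicate 2, as the mean of the mitotic regulators was. Of these markers 1 was separated downwards, Marco, and 1 upwards, Adgre1, where 15.3% and 17.0% of all genes were. The mean of 10 neutrophil markers was -0.11 and -0.07 in siOrm, against 0.12 and 0.56 in siControl, with S100a8 at 2.75, S100a9 at 1.95 and Lcn2 at 1.26 in siControl replicate 2. The granule genes Mpo, Elane, Ngp, Camp and Ltf lay between -0.27 and -0.01 in that array, and the median difference of the 10 genes was -0.07. Of the neutrophil markers 4 were separated downwards, S100a8, S100a9, Lcn2 and Cxcr2, and 1, Elane, upwards, where 15.3% and 17.0% of all genes were. Stellate cell markers, 8 genes, averaged -0.10 and 0.11 in siOrm, against -0.24 and 0.40 in siControl. The 12 hepatocyte markers averaged -0.005 and 0.11 in siOrm, against -0.08 and -0.09 in siControl. G6pc weighed most in these means, at 0.28 and 0.88 in siOrm, against -1.25 and -0.28 in siControl. Its difference was 1.34, and the median difference of the 12 genes was 0.07. Of the hepatocyte markers 5 were separated upwards and 1, Tat, downwards, where 17.0% and 15.3% of all genes were. Erythroid markers had means over 7 genes of 0.33 and 0.07 in siOrm, against -0.07 and -0.17 in siControl. Of these genes 4 were separated upwards and 1, Tfrc, downwards, where 17.0% and 15.3% of all genes were. Their median difference of 0.49 was 0.16 without siOrm replicate 1, 0.31 without siControl replicate 2 and 0.19 without probe sets named _s, _x or _a. Endothelial, T and NK cell, B and plasma cell and cholangiocyte markers had means between -0.03 and 0.21 in siOrm arrays and between -0.17 and 0.23 in siControl arrays. The endothelial mean was highest in siControl replicate 2, at 0.23. Without siControl replicate 2 the median difference was 0.22 for macrophage, -0.17 for neutrophil and 0.32 for stellate cell markers, and -0.52 for the mitotic regulators. With these 3 arrays 8 of the 9 regulators were separated downwards, where 36.8% of all genes were. The 8 took in Foxm1, with a difference of -0.04, and left out Cdk1. The part of these cell types in the differences was not tested.

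**Figure D5:**
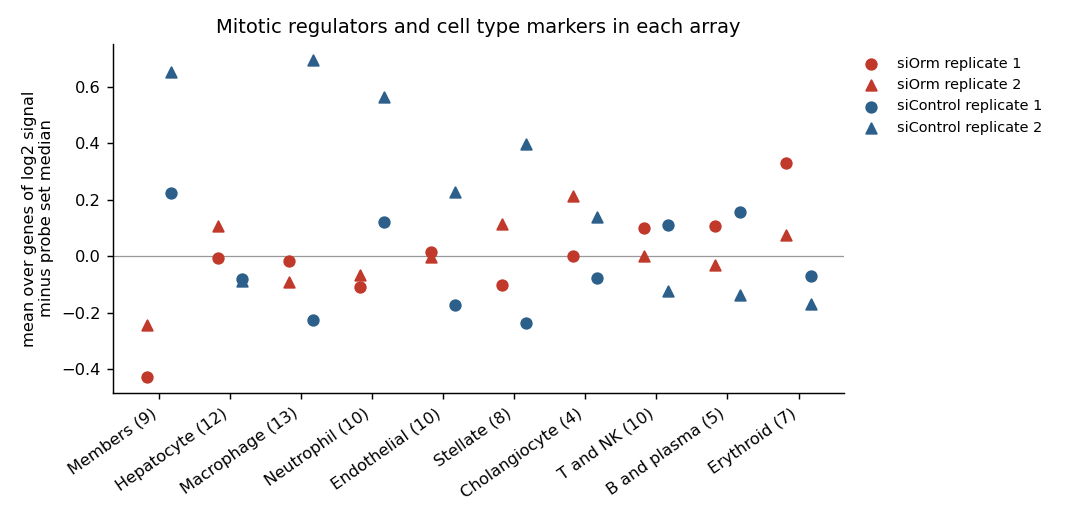
Mean over genes of the log2 signal minus the probe set median (y axis) for the mitotic regulators and for markers of 9 cell types (x axis, with the number of genes), siOrm arrays in red left of siControl arrays in blue, circles for replicate 1 and triangles for replicate 2. siControl replicate 2 is highest for the mitotic regulators at 0.65, for macrophage markers at 0.70 and for neutrophil markers at 0.56. It is also highest for stellate cell markers at 0.40 and endothelial markers at 0.23, and not for the remaining cell types.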

How the data were processed

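RNA of regenerating mouse liver was measured on 4 arrays, 2 siOrm and 2 siControl, grouped by source name. The series text names an Affymetrix mouse array. The authors deposited log values of 18852 probe sets, read here as log2 and each centred on the median of the 4 arrays (largest row median 4.8e-07). Software and normalization were not given in the sources used, and the number of arrays limits the precision. No source states the logarithm's base. All 4 values of 36.2% of probe sets fell on multiples (within 0.05 steps) of the single-precision step for logs of 8 or more, too many for base 10; were the base natural, differences in log2 units would be 1.44 times as large. The 17209 probe sets with 1 symbol in the platform's annotation table were averaged into 10923 genes; 564 had several symbols, 1044 none, and 35 were controls.

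The two-sided tests were limma's (version 3.58.1, R 4.3.3, constant variance prior, 3.6 prior and 2 residual degrees of freedom), adjusted by Benjamini-Hochberg over all genes at 0.05, and the fit was tested on simulated data. In those data each gene varied independently, so a shift of many genes in the same array was not covered. The p-values rest on the spread of these arrays alone, which may be technical. Centring does not alter differences between groups. Alternatives left out each array, used quantile normalization, array medians, other probe set rules, a prior with a trend or a replicate block. The members and lists were chosen with earlier results of these data known. Named genes were all members, the orosomucoids, the 3 genes with the smallest p in each list with the largest going against the list's median, and the 8 genes with array values closest to the members' mean; the markers named singly were chosen after their values were seen. Tables and figures were made with Python 3.11.15, pandas 2.3.3 and matplotlib 3.10.9.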

Additional observations from a re-analysis of the deposited data

How the results depend on the processing

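The number of genes past the test was 0 in most settings, 11 with a variance prior that has a trend, none of them a mitotic regulator, and between 0 and 229 when 1 array was left out. The number of mitotic regulators past the test was between 0 and 4 when 1 array was left out; the 229 genes and the 4 regulators both belong to the fit without siControl replicate 1, in which siControl replicate 2 alone stands for its group and is assumed to vary like the others. The median difference of the regulators ran from -1.28 to -0.52 when 1 array was left out. The number separated downwards ran from 7 to 8, where 23.5% to 36.8% of all genes were with 3 arrays. The gene added to the 7 was Foxm1 without siControl replicate 2, and Cdk1 without siControl replicate 1 or siOrm replicate 2. Without probe sets named _s, _x or _a, which removes Birc5 and Aurkb, 5 of 7 were separated downwards, where 14.8% of all genes were. With the replicate number as a block, 0 genes and 0 regulators passed (limma, smallest adjusted p among the regulators = 0.465). Over genes, the deviations of same-numbered arrays from their group means correlated with r = 0.132, and the labels name no pairing. The difference of Foxm1 (0.02) turned to -0.0433 without siControl replicate 2, where leaving out 1 array gave up to 0.0894, to -0.0876 without probe sets named _s, _x or _a and to -0.21 with the most variable probe set. With 1 array left out, Fzr1 ran from -0.0593 (without siControl replicate 2) to 0.217, Naip2 from -0.486 to 0.0351 (without siOrm replicate 1) and Spag5 from -0.0464 (without siOrm replicate 1) to 0.176; the cause was not tested. The other 8 regulators kept a negative difference in every alternative run, Cdc20 between -2.26 and -1.02 and Birc5 between -1.54 and -0.96. Signal over background cannot be seen in the centred values, so dim probe sets could not be filtered. For the same reason the trend in the variance prior followed the mean of centred values and not the signal level. The 11 genes called with that prior are therefore given as a description only.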

Other observations

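The genes outside the 10 whose values in the 4 arrays lay closest to the mean of the mitotic regulators were taken by the root mean square distance over the 4 arrays. In order they were Gmppb at a distance of 0.043, Igfbp1, Cdca3, Ckap2, Nhsl1, Acly, Jund and Uap1l1 at 0.084. Cdca3 and Ckap2 are substrates of the anaphase-promoting complex, and the other 6 were on no list used here. Gmppb, an enzyme gene of GDP-mannose synthesis, stood at -0.49 and -0.19 in siOrm, against 0.19 and 0.67 in siControl. Igfbp1, which encodes a binding protein of insulin-like growth factors secreted by the liver, stood at -0.48 and -0.17 in siOrm, against 0.17 and 0.61 in siControl. Acly, which encodes the enzyme that makes acetyl-CoA from citrate, stood at -0.40 and -0.14 in siOrm, against 0.14 and 0.69 in siControl. Jund, an AP-1 factor gene, stood at -0.51 and -0.16 in siOrm, against 0.16 and 0.70 in siControl. None of the 8 passed the test over all genes (limma, smallest adjusted p = 0.912, for Cdca3). Of the regulators themselves, Ccna2 and Aurkb lay closest to their common mean, with 19 and 21 other genes closer than they were, while 3150 other genes lay closer than Plk1 and 5486 closer than Foxm1. With 4 arrays, many genes share such a profile, and the distance is a description.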
